A study of Homo sapiens with 14 samples.

Results

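ZBP1 was depleted in the human multiple myeloma lines MM1.S and H929 with lentiviral short hairpins, and the question here is where the response to 1 of those hairpins, shRNA2, differed between the lines. The comparison takes 8 of the 14 libraries of the study, chosen by their labels: MM1.S with shRNA2, MM1.S with a scrambled hairpin, H929 with shRNA2 and H929 with the scrambled hairpin run for shRNA2, with 2 libraries in each group. Both lines are established cultures of malignant plasma cells, grown in RPMI medium with 10% FBS, and every library, controls included, came from transduced cells; poly(A) RNA was sequenced. Whether the 2 libraries of a group stem from independent cultures is not stated in the labels, and each p-value therefore reflects library-to-library variation that may be purely technical.

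ZBP1 is a cytosolic protein that binds nucleic acids in the left-handed Z form and signals through RIPK1 and RIPK3 to cell death and NF-kB. Its own gene is induced by interferons, and adenosine deamination by ADAR1 limits the RNA ligands it sees. Myeloma cells keep the programme of the plasma cell, which rests on IRF4 and on a large secretory apparatus, and carry it into a dividing cell.

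Values below are normalized read counts: reads per gene divided by 1 size factor per library. The lines were normalized separately, so levels are to be read within a line. The effect in a line is the log2 fold change of shRNA2 over its scramble, on log2 of the value plus 1, and the line difference is the effect in MM1.S minus that in H929, each ± its standard error from 1 limma fit over 20370 genes. A gene is called when the Benjamini-Hochberg adjusted p is under 0.05. In the line difference, higher means that the effect was more upward in MM1.S than in H929 and lower that it was more downward, whatever the gene's level in either line.

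Depth was 22.8 to 28.42 M gene-assigned reads for the 4 libraries of MM1.S and 17.24 to 22.25 M for the 4 of H929. Mitochondrial genes took 11.8% and 12.1% of reads in MM1.S with shRNA2 and 10.2% and 9.87% with scramble, and 8.80% and 8.72% in H929 with shRNA2 and 7.12% and 6.84% with scramble. The 2 MM1.S scramble libraries stood furthest apart, with a spread of 30.3 times that of counting, against 14.9 for MM1.S with shRNA2, 2.36 for H929 with shRNA2 and 5.48 for its scramble. All 10 plasma cell markers were expressed in both lines, and FGFR3, overexpressed in H929 through its translocation, averaged 5.04 in MM1.S with shRNA2 and 14.6 with scramble, and 15850 in H929 with shRNA2 and 8357 with scramble, on scales set apart for each line. Of markers of other cells, 4 of 9 for T and NK cells, 4 of 8 for myeloid cells, 2 of 6 for fibroblasts, 3 of 5 for epithelial cells and 2 of 5 for erythroid cells passed the filter on low values. The T and NK markers summed to 417 to 550 in H929 with shRNA2 and 180 to 198 with scramble, mostly CD3E, and to 152 to 205 in MM1.S with shRNA2 and 114 to 166 with scramble. Sums for myeloid, fibroblast, epithelial and erythroid markers stayed between 5.04 and 238 in every group. Fibroblast markers stood at 6.90 to 7.30 in MM1.S with shRNA2 and 61.0 to 75.7 with scramble, mostly PDGFRB and COL1A1, and at 5.04 to 5.89 in H929 with shRNA2 and 7.21 to 9.57 with scramble. The part of these markers in the results was not tested.

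ZBP1 itself (ENSG00000124256, GRCh38 chr20:57603846-57620576, minus strand) fell in both lines, and further in MM1.S. It stood at 367 and 443 in MM1.S with shRNA2, against 3357 and 3551 with scramble. In H929 it stood at 1230 and 1110 with shRNA2, against 3449 and 3729 with scramble. Each shRNA2 library lay far below both scramble libraries of its line. The effects were -3.10 ± 0.12 in MM1.S (limma adjusted p = 4.4e-09) and -1.62 ± 0.12 in H929 (limma adjusted p = 1.3e-06), which left 11.7% and 32.6% of the scramble mean. The line difference of -1.48 ± 0.17 (limma adjusted p = 3.1e-04) ran from -1.61 to -1.34 when each library was left out in turn. In the authors' deposited table the 2 effects were -3.07 and -1.60. Every line difference that follows therefore compares cells with unequal amounts of remaining ZBP1 transcript, and depth of knockdown and cell line cannot be told apart.

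Genes that changed in both lines mostly changed in the same direction, and the size of the effect differed between the lines for 1987 genes. These were 9.75% of the 20370 genes tested, 885 with a higher effect in MM1.S (4.34%) and 1102 with a lower one (5.41%). Of these, 404 and 754 differed by 2-fold or more. With TMM scaling the split was 619 higher and 1369 lower, a scaling that moved the median difference of all genes by -0.092. The effect itself was called for 39.0% of genes in MM1.S (17.4% higher and 21.7% lower) and for 29.0% in H929 (11.9% higher and 17.2% lower). Of 3871 genes called in both lines, 3713 moved in the same direction (95.9%), and 158 in opposite directions. With the replicate number as a block, since MM1.S libraries of the same number deviated together, 1928 were higher and 1922 lower. Set against the other H929 scramble group, the one run for shRNA1, 1838 were higher and 2296 lower, and that choice of control moved many of the list counts below. List counts below under the block or that control are to be set against these counts of all genes, not against 4.34% and 5.41%.

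The called differences had several forms. Of the 885 higher genes, 424 rose in MM1.S and were not called in H929, 236 fell in H929 and were not called in MM1.S, 106 rose in both and 85 rose in MM1.S and fell in H929. Of the 1102 lower genes, 538 fell in MM1.S and were not called in H929, 291 fell in both, 181 rose in H929 and were not called in MM1.S, and 73 fell in MM1.S and rose in H929. A call in 1 line and not in the other is not itself a difference, and the 1987 genes are those called in the test of the difference. Among them, 252 had a mean under 10 in both groups of at least 1 line, 126 in MM1.S and 147 in H929, some of them in both lines. The counts moved with single libraries, and leaving out 1 of the 8 gave 324 to 1093 higher and 484 to 1057 lower genes.

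**Figure D1:**
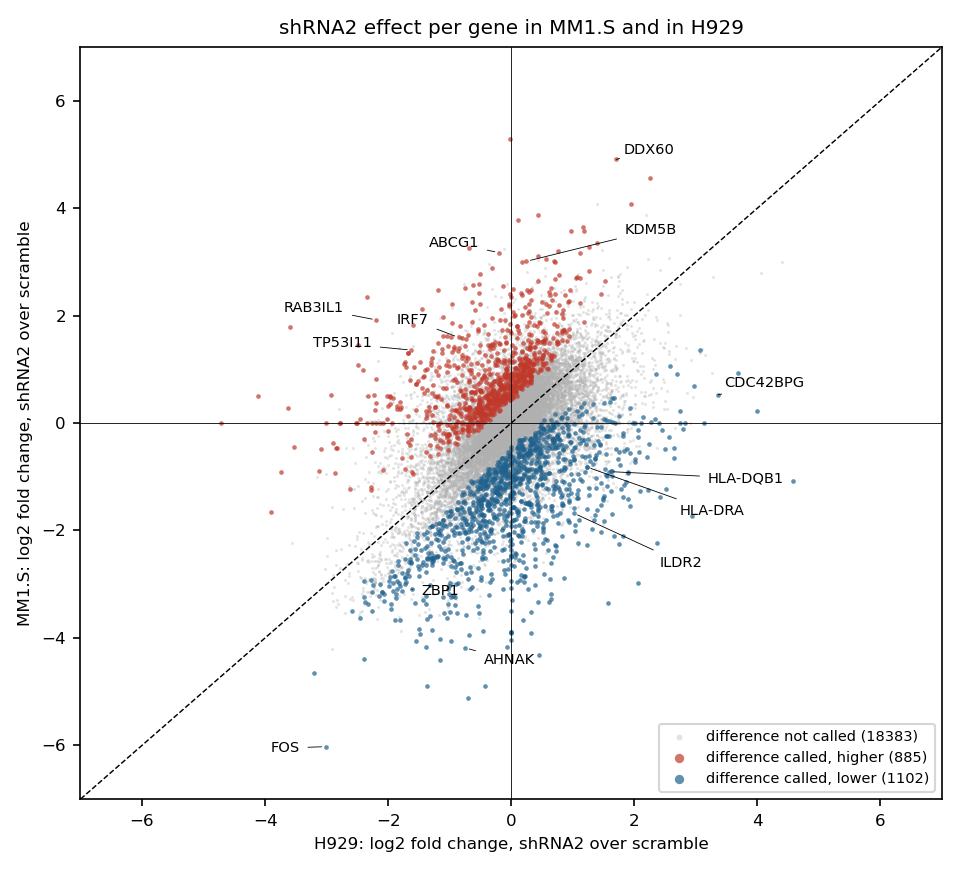
The log2 effect of shRNA2 over scramble in MM1.S (vertical axis) is plotted against that in H929 (horizontal axis) for 20370 genes; red points are the 885 genes whose effect was called higher in MM1.S than in H929, blue points the 1102 whose effect was called lower and grey points the 18383 not called. Most points follow a rising cloud (Pearson r = 0.515 across genes, which are not independent), and the coloured points lie off it on both sides.

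Type I interferon-stimulated genes responded more upward in MM1.S than in H929. Of 45 measured members of the list, 19 were called higher in the line difference and 0 lower, against 4.34% and 5.41% of all genes, and the list's median difference was 0.73 against -0.0033 for all genes. In MM1.S 21 rose and 3 fell, against backgrounds of 17.4% and 21.7%. In H929 9 rose and 17 fell, against 11.9% and 17.2%. The medians of the effects were 0.64 in MM1.S and -0.30 in H929.

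The members divide by what they did in H929. DDX60, LGALS3BP and TRIM22 rose in both lines. IFI44, IFI44L, OASL, RSAD2, XAF1, CMPK2, PARP9 and DTX3L rose in MM1.S and were not called in H929. ISG15, IFIT3, MX1, IRF7 and IFITM2 rose in MM1.S and fell in H929, and IFI35 and IFITM1 were among those that fell in H929 without a call in MM1.S. IFITM2 had 0 reads in both H929 shRNA2 libraries and shares sequence with its neighbours in the family, so its value is uncertain.

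DDX60 (ENSG00000137628, GRCh38 chr4:168216293-168318807, minus strand), a helicase linked to the sensing of viral RNA, stood at 598.5 and 439 in MM1.S with shRNA2, against 16.2 and 16.0 with scramble. In H929 it stood at 205 and 204 with shRNA2, against 78.3 and 48.9 with scramble. The groups did not overlap in either line, and the line difference was 3.20 ± 0.45 (limma adjusted p = 0.00118). Its RefSeq promoter on GRCh38.p14 (chr4:168318703-168319002, minus strand, 250 bases before to 50 after the start) is shown because it carries 2 copies of the core of the interferon-stimulated response element (GAAA, any 2 bases, GAAA), here in capitals.
DDX60: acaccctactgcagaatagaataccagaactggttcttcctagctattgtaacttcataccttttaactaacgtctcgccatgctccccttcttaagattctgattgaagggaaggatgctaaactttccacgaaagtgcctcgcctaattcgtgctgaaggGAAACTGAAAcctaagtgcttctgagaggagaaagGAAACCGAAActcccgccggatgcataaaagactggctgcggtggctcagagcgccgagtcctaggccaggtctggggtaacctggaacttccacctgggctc
Searched on both strands, this motif was in 24 of 35 promoters of the list (68.6%) and in 3.05% of the 11684 promoters of tested genes. A match describes the letters and is not evidence of binding.

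IRF7 (ENSG00000185507, GRCh38 chr11:612553-615999, minus strand), the transcription factor that amplifies type I interferon production, crossed in opposite directions. It stood at 1961 and 2285 in MM1.S with shRNA2, against 574 and 855 with scramble, and at 921 and 767 in H929 with shRNA2, against 1671 and 1384 with scramble. Every MM1.S shRNA2 library lay above both scrambles and every H929 shRNA2 library below both. The line difference was 2.45 ± 0.27 (limma adjusted p = 2.4e-04), from effects of 1.59 and -0.86. ISG15, a ubiquitin-like modifier, stood at 189 and 214 in MM1.S with shRNA2 and 72.4 and 87.3 with scramble, and at 999 and 960.4 in H929 with shRNA2 and 2136 and 1704 with scramble. Its groups were also separate in both lines, with a line difference of 2.29 ± 0.24 (limma adjusted p = 1.6e-04).

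MX1, an antiviral GTPase, stood at 1840 and 1904 in MM1.S with shRNA2, against 620.0 and 639.6 with scramble, and at 2635 and 2604 in H929 with shRNA2, against 5253 and 3625 with scramble. In H929 the 2 shRNA2 libraries were nearly equal while the scrambles stood well apart, both above them. The line difference was 2.31 ± 0.26 (limma adjusted p = 2.8e-04). XAF1, which promotes apoptosis, stood at 291 and 248.5 in MM1.S with shRNA2 and 24.8 and 43.7 with scramble, a wide gap. In H929 it stood at 195 and 200.3 with shRNA2 and 239 and 129 with scramble, which overlap. Its line difference was 2.82 ± 0.41 (limma adjusted p = 0.00139), and that of RSAD2, the antiviral enzyme viperin, was 2.72 ± 0.42 (limma adjusted p = 0.00229).

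Among 25 measured genes that sense nucleic acids or activate IRF3, 6 were higher in the line difference and 0 lower, against 4.34% and 5.41% of all genes. IFI16, a DNA sensor, differed by 0.92 ± 0.25, ADAR, which encodes the RNA deaminase, by 0.49 ± 0.12 and MYD88, a toll-like receptor adaptor, by 0.77 ± 0.16. With the replicate block 12 of these 25 were higher and 2 lower, against 1928 and 1922 of all 20370 genes. Leaving out 1 library could remove the calls of these sensing genes, while their median difference stayed between 0.29 and 0.40. Without 1 library the interferon list had between 12 and 20 higher members, with 12 and 1 lower without H929 scramble replicate 1 and 12 without H929 shRNA2 replicate 2. Set against the H929 scramble of shRNA1, 34 were higher with a median of 2.00, and the median effect in H929 was -1.40. In the same setting 12 of the sensing genes were higher and 2 lower, against 1838 and 2296 of all 20370 genes.

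**Figure D2:**
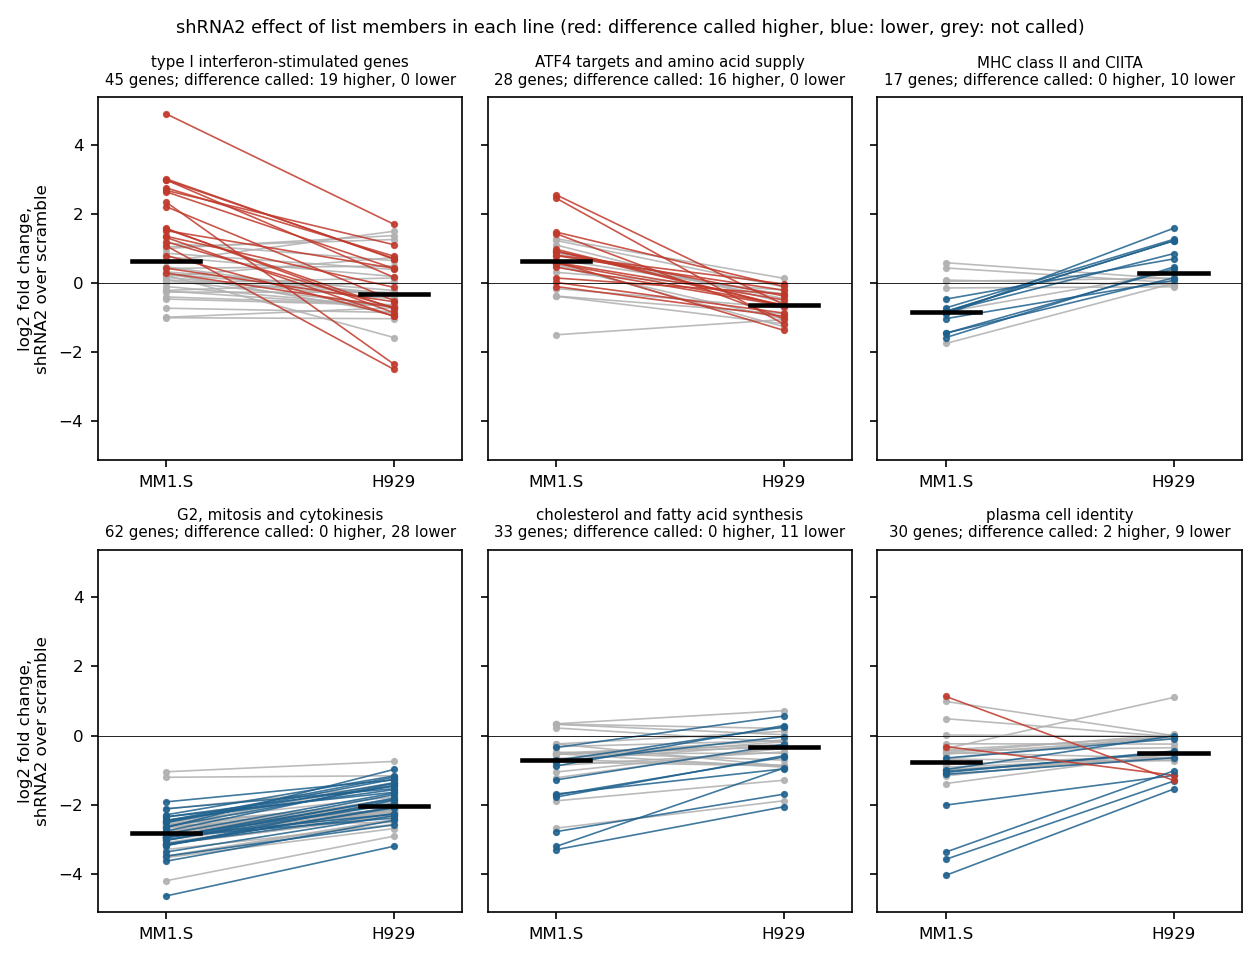
Each line joins the log2 effect of shRNA2 over scramble of 1 gene in MM1.S (left) and in H929 (right), for 6 gene lists, with a black bar at the list median. Interferon and ATF4 genes slope down from MM1.S to H929, with medians of 0.64 and -0.30 and of 0.66 and -0.64, and MHC class II genes slope up, with medians of -0.82 and 0.31.

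MHC class II genes went the other way. Of 17 members, which present peptides to CD4+ T cells or regulate that pathway, 10 were lower in the line difference and 0 higher, against 5.41% and 4.34% of all genes, with a median of -1.60. In MM1.S 6 fell and 1 rose, against 21.7% and 17.4% of all genes, with a median effect of -0.82. In H929 5 rose and 0 fell, against 11.9% and 17.2%, with a median of 0.31. CD74, the invariant chain, averaged 18030 in MM1.S with shRNA2 and 31710 with scramble, and 40.5 in H929 with shRNA2 and 32.4 with scramble, on scales set apart for each line.

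HLA-DRA (ENSG00000204287, GRCh38 chr6:32439842-32445046, plus strand), the alpha chain of HLA-DR, stood at 3940 and 4597 in MM1.S with shRNA2, against 7574 and 7439 with scramble. H929 had 199 and 198 with shRNA2, against 97.8 and 72.3 with scramble. Both shRNA2 libraries lay below the scrambles in MM1.S and above them in H929. HLA-DRA changed by -0.82 ± 0.22 in MM1.S (limma adjusted p = 0.00996) and by 1.23 ± 0.22 in H929 (limma adjusted p = 0.00111), and the line difference was -2.05 ± 0.31 (limma adjusted p = 0.00195). The authors' deposited table gives -0.81 in MM1.S and 1.04 in H929.

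HLA-DQB1 (ENSG00000179344, GRCh38 chr6:32659467-32668383, minus strand), the beta chain of HLA-DQ, stood at 22.9 and 40.4 in MM1.S with shRNA2, against 49.5 and 67.7 with scramble, and at 130.4 and 152 in H929 with shRNA2, against 48.4 and 43.6 with scramble. The H929 gap was wide and the MM1.S gap narrow, without overlap in either. HLA-DQB1 changed by -0.90 ± 0.28 in MM1.S (limma adjusted p = 0.0204) and by 1.60 ± 0.28 in H929 (limma adjusted p = 9.2e-04), and the line difference was -2.50 ± 0.39 (limma adjusted p = 0.00238). The RefSeq promoter (chr6:32666608-32666907, minus strand) is shown with CCAAT, the box bound by NF-Y in class II promoters, in capitals on either strand.
HLA-DQB1: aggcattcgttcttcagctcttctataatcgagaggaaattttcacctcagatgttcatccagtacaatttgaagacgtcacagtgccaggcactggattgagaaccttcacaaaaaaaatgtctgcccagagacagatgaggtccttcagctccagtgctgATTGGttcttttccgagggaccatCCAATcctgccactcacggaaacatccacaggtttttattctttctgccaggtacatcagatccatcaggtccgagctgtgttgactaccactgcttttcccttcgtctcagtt
CCAAT was in 11 of 14 promoters of the list (78.6%) and in 36.3% of all.

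CIITA, the master coactivator of class II transcription, stood at 524.5 and 742 in MM1.S with shRNA2, against 1673 and 2059 with scramble. In H929 it stood at 114 and 119 with shRNA2, against 68.0 and 103 with scramble. CIITA fell in MM1.S (-1.57 ± 0.27, limma adjusted p = 4.9e-04) and was not called in H929 (0.47 ± 0.27, limma adjusted p = 0.217), and the line difference was -2.04 ± 0.39 (limma adjusted p = 0.0061). HLA-DPA1, HLA-DPB1 and HLA-DOB likewise fell in MM1.S without a call in H929. HLA-DRB1, HLA-DRB5 and HLA-DMA rose in H929 without a call in MM1.S, and HLA-DMB was called in neither line. HLA-DMB kept its call in the difference in 0 of 8 fits without 1 library (-1.91 to -1.45) and lost it with edgeR, with DESeq2, with no filter and with the 8 libraries alone. HLA-DMA kept its call in 2 of 8 (-1.41 to -0.92) and lost it with no filter. HLA-DRB1 and HLA-DRB5 share reads, so their values are uncertain.

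The 7 members not called in the difference were HLA-DQA1, HLA-DOA, CD74, the RFX subunits RFX5, RFXAP and RFXANK, and the protease CTSS; CD74 gave -1.14 ± 0.50 (limma adjusted p = 0.176). Leaving out 1 library gave 4 to 8 lower members, with 4 without H929 scramble replicate 1 or H929 shRNA2 replicate 2, 5 without MM1.S shRNA2 replicate 1, and 6 without MM1.S scramble replicate 2 or H929 shRNA2 replicate 1. Against the H929 scramble of shRNA1 4 were lower and 1 higher, with a median of -0.65, and the median effect in H929 was -0.23 rather than 0.31. Of 19 genes of MHC class I and peptide loading, 1 was called higher and 0 lower, or 8 and 1 against that other scramble. Against it 1838 of all 20370 genes were higher and 2296 lower.

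ATF4 targets and genes of amino acid supply also responded more upward in MM1.S than in H929. ATF4 is the transcription factor of the integrated stress response, which raises amino acid synthesis, transport and tRNA charging. Of 28 measured members 16 were higher in the line difference and 0 lower, against 4.34% and 5.41% of all genes, with a median of 1.17. In MM1.S 15 rose and 1 fell, against 17.4% and 21.7% of all genes, with a median of 0.66. In H929 12 fell and 0 rose, against 17.2% and 11.9%, with a median of -0.64. DDIT3, CHAC1, ASNS, SLC7A11, SLC3A2, STC2, GARS and SARS rose in MM1.S without a call in H929. VLDLR, AARS and WARS rose in MM1.S and fell in H929, and PHGDH, SHMT2, SLC38A2 and EPRS fell in H929 without a call in MM1.S. ATF3 was called in the difference and in neither line. The fit shares the spread of a gene between the lines, so unlike MM1.S scrambles also widen its error in H929. In the authors' deposited table CHAC1 and ASNS were called in H929 and not in MM1.S.

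At these genes the 2 MM1.S scramble libraries differed from each other. CHAC1 (ENSG00000128965, GRCh38 chr15:40952962-40956519, plus strand), which degrades glutathione, stood at 1817 and 1777 in MM1.S with shRNA2, against 102 and 895 with scramble, and at 1040 and 1076 in H929 with shRNA2, against 1585 and 1659 with scramble. The shRNA2 pairs were tight in both lines, and in MM1.S the scrambles were far apart, both below them. The line difference was 3.18 ± 0.89 (limma adjusted p = 0.0414), and it was 1.62 without MM1.S scramble replicate 1 and 4.74 without replicate 2. CHAC1 was not called by edgeR or DESeq2, without a filter, with the 8 libraries alone or against the H929 scramble of shRNA1, and it kept its call in 2 of 8 fits that left out 1 library. In the authors' deposited table CHAC1 had a log2 fold change of 0.99 in MM1.S with an adjusted p of 0.131, and -0.60 in H929 with an adjusted p of 7.8e-04.

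ASNS, asparagine synthetase, stood at 4048 and 3359 in MM1.S with shRNA2, against 1343 and 2760 with scramble. H929 gave 2008 and 1777 with shRNA2, against 3208 and 2770 with scramble. The groups were separate in both lines, above scramble in MM1.S and below it in H929, where the effect was not called, and scramble replicate 1 was again the lowest library of MM1.S. The line difference was 1.60 ± 0.35 (limma adjusted p = 0.0147), 1.08 without that library and 2.11 without the other scramble. In the authors' deposited table ASNS had a log2 fold change of 0.72 in MM1.S with an adjusted p of 0.156, and -0.65 in H929 with an adjusted p of 4.8e-05, so in that table it was called in H929 and not in MM1.S. The promoters of both genes are shown because each holds TGATGNAA, the core of the element that C/EBP and ATF dimers bind, in capitals (CHAC1 on the reverse strand); RefSeq gives them at chr15:40953221-40953520, plus strand, and chr7:97872359-97872658, minus strand.
CHAC1: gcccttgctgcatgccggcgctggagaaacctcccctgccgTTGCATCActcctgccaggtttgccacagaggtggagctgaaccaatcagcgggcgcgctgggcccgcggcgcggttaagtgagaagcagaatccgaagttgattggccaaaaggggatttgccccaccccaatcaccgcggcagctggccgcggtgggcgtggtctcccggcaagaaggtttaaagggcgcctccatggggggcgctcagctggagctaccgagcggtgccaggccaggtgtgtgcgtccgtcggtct
ASNS: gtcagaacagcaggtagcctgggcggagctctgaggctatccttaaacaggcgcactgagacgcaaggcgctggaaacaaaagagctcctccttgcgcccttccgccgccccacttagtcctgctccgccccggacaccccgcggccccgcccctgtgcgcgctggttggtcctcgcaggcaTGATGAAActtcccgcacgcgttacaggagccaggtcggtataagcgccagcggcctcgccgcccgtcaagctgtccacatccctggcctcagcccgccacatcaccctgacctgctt
The motif was in 4 of 19 promoters of the list (21.1%), those of ASNS, ATF3, CHAC1 and SLC3A2, and in 1.73% of all promoters.

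WARS, the tryptophan tRNA synthetase, was called without each library in turn. It stood at 2053 and 1938 in MM1.S with shRNA2, against 1233 and 1689 with scramble, and at 3272 and 3021 in H929 with shRNA2, against 5275 and 4630 with scramble. The groups were separate in both lines, upward in MM1.S and downward in H929. The line difference was 1.12 ± 0.22 (limma adjusted p = 0.00671), 0.89 to 1.35 without each library in turn. VLDLR, a lipoprotein receptor, stood at 272 and 263 in MM1.S with shRNA2 and 106 and 171 with scramble, and at 182.5 and 189.5 in H929 with shRNA2 and 315 and 272 with scramble. It was likewise separate in both lines, with a difference of 1.64 ± 0.26 (limma adjusted p = 0.00243). PHGDH, the first enzyme of serine synthesis, stood at 1972 and 2132 in MM1.S with shRNA2 and 793 and 2238 with scramble, which overlap. In H929 PHGDH stood at 768 and 672 with shRNA2 and 1864 and 1836 with scramble, where both shRNA2 libraries were lower, and the line difference was 1.99 ± 0.47 (limma adjusted p = 0.0201).

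ATF4 itself was not called in the difference (0.52 ± 0.19, limma adjusted p = 0.114). STC2, a secreted glycoprotein, had 1 and 18 reads in the MM1.S scrambles and 32 and 29 with shRNA2, so its fold in MM1.S is poorly fixed. The count of 16 was 13 without MM1.S scramble replicate 1, with a median of 0.68, and 26 without replicate 2, with a median of 1.76. It was 2 without H929 shRNA2 replicate 2, 4 without H929 scramble replicate 1, 5 without H929 scramble replicate 2, H929 shRNA2 replicate 1 or MM1.S shRNA2 replicate 1, and 10 without MM1.S shRNA2 replicate 2. With the H929 scramble of shRNA1 as control, 5 were higher and 1 lower, and the median effect in H929 was -0.20. That control gave 1838 higher and 2296 lower among all 20370 genes.

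Genes of G2, mitosis and cytokinesis fell in both lines and further in MM1.S. All 62 members fell in MM1.S, with a median of -2.82, and all 62 fell in H929, with a median of -2.05. Of all genes 21.7% fell in MM1.S and 17.2% in H929. The line difference was negative for 62 of 62, with a median of -0.86, and called for 28, against 5.41% of all genes. With the replicate block 44 were called, against 1922 of all 20370 genes called lower. Genes of DNA replication and S phase also fell, 50 of 50 in MM1.S and 49 of 50 in H929, with medians of -1.87 and -1.61. In the difference 2 of these 50 were called lower, CCNE1 (-1.15 ± 0.18) and ORC6 (-0.96 ± 0.18). That share is below the 5.41% of all genes called lower, so the replication list showed no excess. The mitosis and replication results both depend on the H929 control, and against the other scramble 2296 of all 20370 genes were lower. Set against the H929 scramble of shRNA1, the median effect in H929 was -0.65 for the mitosis genes and -0.35 for the replication genes, all 62 mitosis genes were lower in the difference, with a median of -2.19, and so were 48 of the 50 replication genes, with a median of -1.54. These are bulk measurements, in which fewer cells in a phase and less RNA per cell cannot be told apart.

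PLK1 (ENSG00000166851, GRCh38 chr16:23677656-23690367, plus strand), the kinase that drives entry into mitosis, stood at 450.5 and 577 in MM1.S with shRNA2, against 4525 and 4771 with scramble. The H929 values were 457 and 484 with shRNA2, against 1655 and 1814 with scramble. The shRNA2 libraries lay far below the scrambles in both lines. The effects were -3.19 and -1.88, and the line difference -1.31 ± 0.21 (limma adjusted p = 0.0025). Its RefSeq promoter (chr16:23678639-23678938, plus strand) is shown with TTTGAA, the cell cycle homology region bound by the DREAM and MuvB complexes, in capitals.
PLK1: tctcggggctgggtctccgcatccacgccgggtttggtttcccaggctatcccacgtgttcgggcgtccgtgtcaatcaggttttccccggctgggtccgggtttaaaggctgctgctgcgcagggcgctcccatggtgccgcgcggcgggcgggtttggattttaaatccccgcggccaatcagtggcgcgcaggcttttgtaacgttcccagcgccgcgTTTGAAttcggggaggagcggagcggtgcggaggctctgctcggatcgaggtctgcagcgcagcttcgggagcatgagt
TTTGAA was in 39 of 52 promoters of the list (75.0%) and in 10.1% of all, and CCAAT in 40 of 52 (76.9%) and 36.3%.

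CDC25B, the phosphatase that activates CDK1 before mitosis, stood at 710.1 and 824 in MM1.S with shRNA2 and 4751 and 4961 with scramble. The H929 values were 1123 and 973 with shRNA2 and 1964 and 2169 with scramble. Its line difference of -1.68 ± 0.20 (limma adjusted p = 3.6e-04) was the lowest of the list. BIRC5 (survivin) stood at 133.5 and 142 in MM1.S with shRNA2 and 3526 and 3417 with scramble, and at 99.2 and 129 in H929 with shRNA2 and 1005 and 1102 with scramble. Both genes were separate by a wide margin in both lines. The mitotic kinase AURKA differed by -1.26 ± 0.16, cyclin B1 (CCNB1) by -1.04 ± 0.19 and the transcription factor FOXM1 by -0.65 ± 0.17.

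Among G1 regulators 3 of 30 were higher in the difference and 3 lower, where 4.34% and 5.41% of all genes were. The counts were 4 and 14 against the H929 scramble of shRNA1, where those of all 20370 genes were 1838 and 2296. Cyclin D1 (CCND1) stood at 74.0 and 121 in MM1.S with shRNA2, against 503 and 667 with scramble, and at 721 and 680.2 in H929 with shRNA2, against 1491 and 1539 with scramble. It fell in both lines without overlap, and further in MM1.S (-1.49 ± 0.29, limma adjusted p = 0.00716). The CDK inhibitors CDKN2B and CDKN2A had higher effects in MM1.S, by 2.04 ± 0.38 and 1.28 ± 0.22. Of 40 genes of homologous recombination and the Fanconi pathway, 3 were lower and 0 higher with a median of -0.23, or 28 and 0 with a median of -1.26 against that other scramble. The mitosis count without 1 library was 10 to 33, and under 19 without MM1.S scramble replicate 1 (17), MM1.S shRNA2 replicate 1 (18) or each H929 library (10 to 16).

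Many genes of cholesterol and fatty acid synthesis fell in both lines, some of them further in MM1.S. Of 33 measured genes 11 were lower in the difference and 0 higher, against 5.41% and 4.34% of all genes, with a median of -0.45. In MM1.S 24 fell and 0 rose, against 21.7% and 17.4% of all genes, with a median of -0.72. In H929 14 fell and 2 rose, against 17.2% and 11.9%, with a median of -0.33. FADS1, a fatty acid desaturase, stood at 64.7 and 72.0 in MM1.S with shRNA2 and 685 and 682 with scramble, and at 222 and 223 in H929 with shRNA2 and 965 and 902 with scramble. The fall was deeper in MM1.S, with no overlap in either line, and the line difference was -1.24 ± 0.24 (limma adjusted p = 0.00753). The stearoyl-CoA desaturase SCD differed by -1.09 ± 0.16, farnesyl diphosphate synthase (FDPS) by -0.74 ± 0.13 and INSIG1, the brake on SREBP processing, by -1.03 ± 0.15. The count of 11 was 6 without H929 scramble replicate 1, and 7 without H929 scramble replicate 2 or H929 shRNA2 replicate 1. Against the H929 scramble of shRNA1 it was 17, with 1 higher, beside 2296 lower and 1838 higher among all 20370 genes.

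The cholesterol exporters ABCG1 and ABCA1 differed in the upward direction. ABCG1 (ENSG00000160179, GRCh38 chr21:42199689-42297244, plus strand) stood at 205 and 163 in MM1.S with shRNA2, against 16.2 and 23.2 with scramble. H929 gave 205 and 181 with shRNA2, against 228 and 216 with scramble. The shRNA2 libraries lay far above the scrambles in MM1.S and slightly below them in H929, where the effect was not called. The line difference was 3.38 ± 0.28 (limma adjusted p = 3.3e-05), from 3.17 in MM1.S and -0.20 in H929. ABCA1, the partner exporter, stood at 125 and 105.5 in MM1.S with shRNA2 and 55.2 and 38.3 with scramble, and at 179 and 134 in H929 with shRNA2 and 406 and 285 with scramble. It rose in MM1.S and fell in H929, with a line difference of 2.43 ± 0.32 (limma adjusted p = 6.9e-04). These were the 2 members called of 13 measured LXR targets and exporters, against 4.34% higher and 5.41% lower among all genes. The median difference of the 13 was 0.017, with 7 positive and 6 negative.

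Most plasma cell identity genes fell in both lines, with 9 of 30 lower in the difference and 2 higher, against 5.41% and 4.34% of all genes. Of all genes 21.7% fell and 17.4% rose in MM1.S, and 17.2% fell and 11.9% rose in H929. In MM1.S 24 fell and 1 rose, and in H929 18 fell and 0 rose, with medians of -0.76 and -0.50; with the replicate block 15 were lower in the difference, and 5 without MM1.S scramble replicate 1, MM1.S shRNA2 replicate 1 or any H929 library. XBP1, the driver of the secretory programme, differed by -0.48 ± 0.13 (limma adjusted p = 0.0364), the orphan receptor GPRC5D by -2.26 ± 0.23 and ELL2, an elongation factor of immunoglobulin transcription, by -0.56 ± 0.15. KLF2 differed by -2.50 ± 0.37 and CAV1, a component of caveolae, by -2.35 ± 0.28. TNFRSF17, the receptor BCMA, fell in MM1.S without a call in H929 (-0.56 ± 0.14), as did the surface receptor SLAMF7 (-0.98 ± 0.18). IRF4 was not called (-0.37 ± 0.16, limma adjusted p = 0.165). The higher members were FCRL2, an Fc receptor-like protein (2.43 ± 0.30), and EDEM1, of ER-associated degradation (0.83 ± 0.17). The summed level of the 10 plasma cell markers was 110100 to 110300 in MM1.S with shRNA2 and 184500 to 201900 with scramble, and 125300 to 131800 in H929 with shRNA2 and 156600 to 160600 with scramble.

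The B cell programme had 2 of 29 higher, the transcription factor SPI1 (1.59 ± 0.26) and the kinase BTK (1.53 ± 0.27), and 3 lower, with the transcription factor ETS1 at -1.59 ± 0.21. Of 36 genes of the unfolded protein response and ER folding 3 were higher and 2 lower, against 4.34% and 5.41% of all genes. Against the H929 scramble of shRNA1 the counts were 7 and 5 in the B cell list and 5 and 11 in this one.

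NF-kB subunits and targets, a branch downstream of ZBP1, had 6 of 31 higher in the difference and 1 lower, with a median of 0.35, against a background of 4.34% and 5.41%. ICAM1, an adhesion molecule, differed by 1.29 ± 0.19, and the inhibitors NFKBIE and NFKBIA by 1.27 ± 0.20 and 0.89 ± 0.16. Of 28 genes of necroptosis, death receptors and caspases 1 was higher and 1 lower, shares near the background. In the BCL2 family 3 of 16 were higher, including the p53 target PMAIP1 (1.70 ± 0.37), and 2 lower, including BCL2L11, which encodes BIM (-1.13 ± 0.19). Immediate early genes were split, with 4 of 29 higher, NR4A1 (1.64 ± 0.36) and IER2 (1.24 ± 0.23) among them, and 5 lower, FOS and FOSB among them. FOS stood at 4.17 and 11.8 in MM1.S with shRNA2 and 548 and 511 with scramble, and at 55.5 and 26.7 in H929 with shRNA2 and 441 and 229.8 with scramble, a fall in both lines with a difference of -3.01 ± 0.80 (limma adjusted p = 0.0333).

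Many lysosome and autophagy genes rose (24 of 33 in MM1.S and 14 in H929), against 17.4% and 11.9% of all genes. In the difference 6 were higher and 0 lower, against 4.34% and 5.41%. Among the 6 were the glycogen-degrading enzyme GAA (1.69 ± 0.35), the autophagy receptor SQSTM1 (1.07 ± 0.19) and the protease CTSL (1.01 ± 0.16). Among 66 cytosolic ribosomal proteins 5 were higher and 0 lower, with a median of 0.23; with the replicate block 14 were higher, and with TMM scaling 2. Ribosome biogenesis had 0 of 40 called in the difference, while 24 fell in MM1.S and 30 in H929, against 21.7% and 17.2% of all genes. The 13 transcripts of the mitochondrial genome had 0 called, 53 genes of the nuclear-encoded respiratory chain 1 lower, and 20 heat shock genes 1 lower. Glycolysis and hypoxia had 3 of 32 higher and 4 lower, with PDK1, a brake on pyruvate oxidation, at -1.47 ± 0.18 and the hypoxia-induced peptide ADM at -2.34 ± 0.26. Of 30 p53 targets 3 were higher and 2 lower, of 24 FOXO and quiescence genes 1 and 2, and of 20 genes of IL-6 and JAK-STAT3 signalling 3 and 1. Set beside the 4.34% higher and 5.41% lower among all genes, the FOXO and heat shock shares and the lower share of the p53 targets are near the background.

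Several of these lists also moved with the H929 control, in a setting where calls rose over all genes. Of all 20370 genes 1838 were then higher and 2296 lower, against 885 and 1102 with the control used above. Whether a list moved more than all genes did was not tested. Against the H929 scramble of shRNA1, 13 NF-kB genes, 13 lysosome genes, 11 FOXO genes, 9 immediate early genes, 8 p53 targets, 6 BCL2 family genes, 6 IL-6 and JAK-STAT3 genes and 4 necroptosis genes were higher, with 5 of the immediate early genes and 1 or 2 of each of the other lists lower. In the other direction 16 respiratory chain genes, 14 ribosome biogenesis genes and 10 heat shock genes were lower and 0 higher, and 9 glycolysis genes were lower and 3 higher. The cytosolic ribosomal proteins then had 0 higher and 1 lower, and their median turned from the positive value above to -0.14.

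Beyond the lists, genes well expressed in both lines were ranked by their line difference. Well expressed means a mean of at least 50 in at least 1 of the 2 groups of each line. A gene can thus pass through the group where it is high and be near the floor in the other. The highest were RAB3IL1, an exchange factor for RAB3A, ABCG1, DDX60, CHAC1, SLC35F1, TP53I11, XAF1, KDM5B, RSAD2 and CMTM3, from 4.11 to 2.67. SLC35F1 kept its call in 3 of 8 fits without 1 library (1.90 to 4.26) and lost it with no filter, with the 8 libraries alone and against the H929 scramble of shRNA1 (2.08). RAB3IL1 (ENSG00000167994, GRCh38 chr11:61897301-61920269, minus strand) stood at 54.2 and 70.0 in MM1.S with shRNA2, against 14.3 and 16.9 with scramble. H929 had 12.6 and 9.37 with shRNA2, against 49.4 and 57.4 with scramble. It rose in MM1.S and fell in H929 without overlap, and the line difference was 4.11 ± 0.38 (limma adjusted p = 7.3e-05). KDM5B, a histone demethylase of H3K4, stood at 1535 and 1474 in MM1.S with shRNA2 and 176 and 196 with scramble, and at 3308 and 3429 in H929 with shRNA2 and 2924 and 2762 with scramble. Its change was large in MM1.S and slight in H929, with a line difference of 2.77 ± 0.14 (limma adjusted p = 1.2e-06). TP53I11, a p53-inducible gene, stood at 1201 and 1493 in MM1.S with shRNA2 and 471 and 578 with scramble, and at 37.0 and 32.4 in H929 with shRNA2 and 112 and 105 with scramble, opposite directions with a difference of 2.98 ± 0.24 (limma adjusted p = 3.2e-05).

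The lowest were SCNN1G, FER1L4, AHNAK, ARSI, LPIN3, TCHH, FOS, LINC00861, CDC42BPG and FOSB, from -3.77 to -2.79. TCHH kept its call in 3 of 8 fits without 1 library (-3.40 to -2.64), and LINC00861 gave -0.97 against the H929 scramble of shRNA1 (limma adjusted p = 0.225). AHNAK (ENSG00000124942, GRCh38 chr11:62433542-62556235, minus strand), a very large scaffold protein, stood at 48.0 and 48.3 in MM1.S with shRNA2, against 934 and 854 with scramble. The H929 values were 53.8 and 38.2 with shRNA2, against 71.1 and 83.0 with scramble. The gap to the scrambles was wide in MM1.S and narrow in H929, with no overlap in either and a line difference of -3.44 ± 0.27 (limma adjusted p = 3.2e-05). SCNN1G, the gamma subunit of the epithelial sodium channel, stood at 5154 and 5921 in MM1.S with shRNA2 and 4740 and 4750 with scramble, and at 98.4 and 95.1 in H929 with shRNA2 and 4.12 and 6.38 with scramble. The gap between shRNA2 and scramble was wide in H929 and narrow in MM1.S, and the line difference was -3.77 ± 0.56 (limma adjusted p = 0.00171), or -1.60 against the H929 scramble of shRNA1 (limma adjusted p = 0.0623). CDC42BPG, a kinase, had the same form, at 817.5 and 1018 in MM1.S with shRNA2 and 569.5 and 706 with scramble, and at 235 and 258 in H929 with shRNA2 and 16.5 and 31.9 with scramble.

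**Figure D3:**
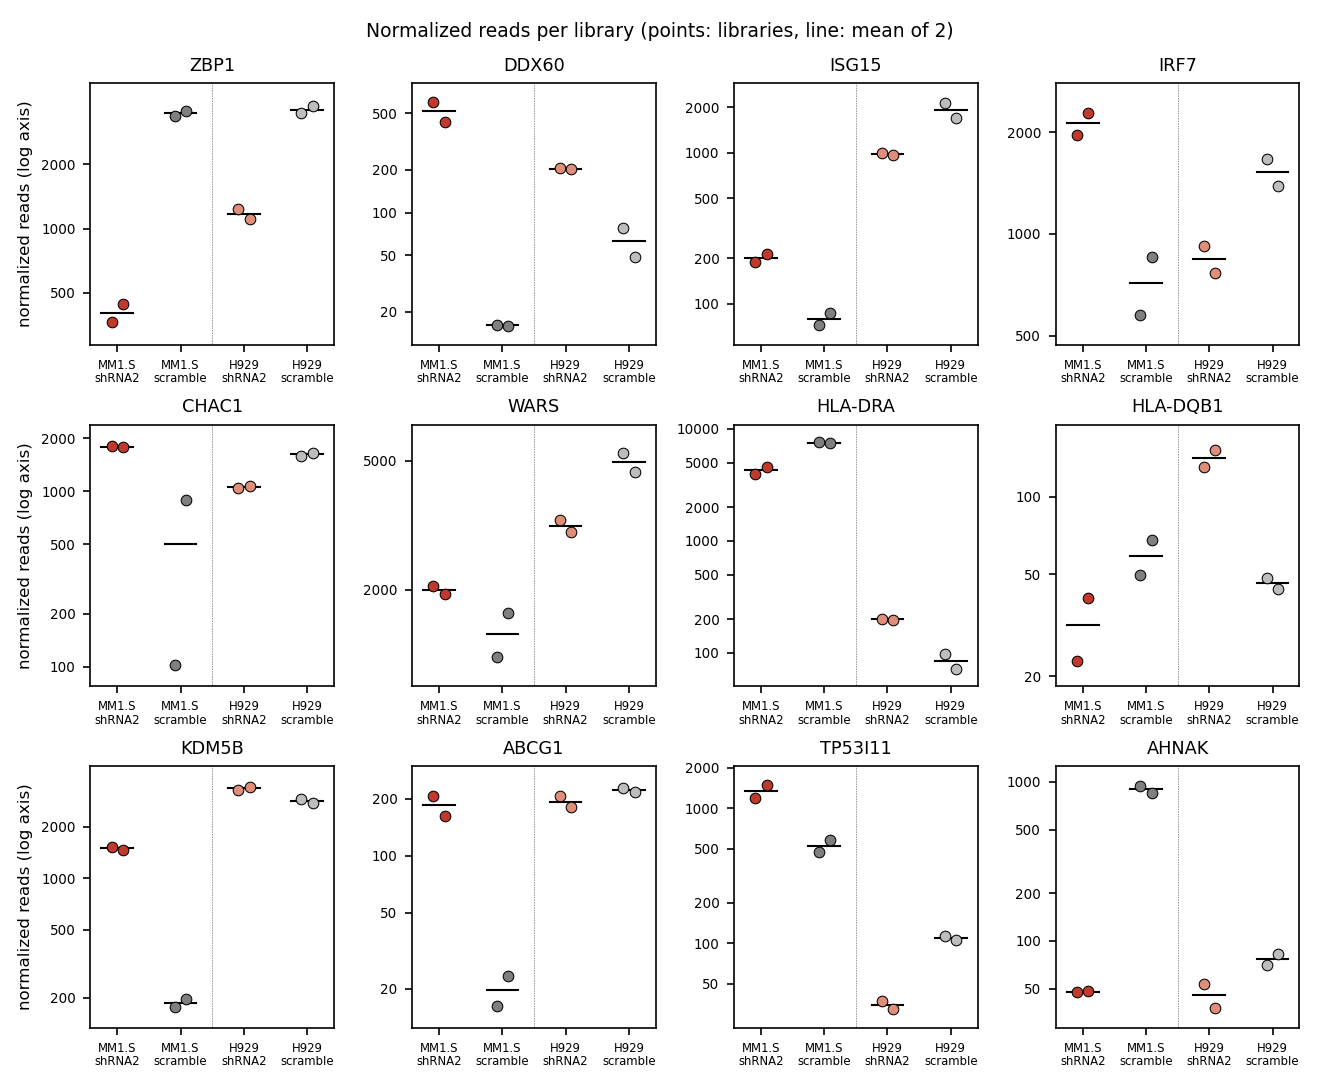
Normalized read counts (log axis) of 12 genes in the 8 libraries, 1 point per library, with MM1.S shRNA2, MM1.S scramble, H929 shRNA2 and H929 scramble in order. ZBP1 falls in both lines, IRF7 and ISG15 rise in MM1.S and fall in H929, HLA-DRA and HLA-DQB1 do the reverse, and for CHAC1 the 2 MM1.S scramble points lie apart at 102 and 895.

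Genes called in both lines with opposite signs were 85 of those higher (0.417% of all genes) and 73 of those lower (0.358%). ILDR2, an immunoglobulin-like receptor, stood at 53.2 and 50.3 in MM1.S with shRNA2, against 169 and 167 with scramble, and at 348 and 291 in H929 with shRNA2, against 167 and 148 with scramble. The groups were separate in both lines, and the difference was -2.69 ± 0.23 (limma adjusted p = 4.5e-05). FSIP2, DDAH1 and PRR15 followed, with differences of -2.53 ± 0.44, -2.41 ± 0.30 and -2.38 ± 0.32; DDAH1 breaks down asymmetric dimethylarginine. In the upward direction CMTM3 stood at 182.5 and 174 in MM1.S with shRNA2 and 44.8 and 73.1 with scramble, and at 26.9 and 32.4 in H929 with shRNA2 and 61.8 and 62.8 with scramble, a difference of 2.67 ± 0.37 (limma adjusted p = 0.00113). EEF1A1P22 differed by 2.51 ± 0.52, but as a pseudogene copy of EEF1A1 it shares reads with its parent and is uncertain.

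A further 93 called genes were under 10 in both groups of 1 line and at 50 or more in the other, so their difference is close to the effect in 1 line. Among them SLCO2B1, an organic anion transporter, stood at 409.8 and 334 in MM1.S with shRNA2 and 6.67 and 10.7 with scramble, and at 5.05 and 3.60 in H929 with shRNA2 and 8.24 and 2.13 with scramble. IL2RB and MMP13 were the next highest (3.93 and 3.91), and the endocytic adaptor DAB2, the Notch ligand DLL4 and the matrix protein EFEMP1 the lowest (-4.77, -4.42 and -4.22). At the other end, genes with the smallest line difference were picked among those moving the same way by over 2-fold on average. Their likeness in the lines thus follows from the choice. They included SPRYD4, TBCK, SPATA6, STX16 and KLHDC9, which rose, and PFAS, CLDND1, A4GALT, KIAA1024 and MTHFD1, which fell. CLDND1 changed by -1.41 ± 0.13 in MM1.S and by -1.41 ± 0.13 in H929. Against the H929 scramble of shRNA1 the H929 effects were -0.08 for PFAS (limma adjusted p = 0.757) and -0.055 for MTHFD1 (limma adjusted p = 0.767), both without a call, and A4GALT lost its call in each line in 2 of 8 fits without 1 library.

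The same line difference for shRNA1 shares the MM1.S scramble libraries, so the values stand side by side without a test between them. In H929 it was taken against the scramble run for shRNA1, so hairpin and H929 control cannot be told apart here. The shRNA1 difference was called for 21.4% of genes, 10.4% higher and 11.0% lower. The shRNA2 difference was called for 9.75%, 4.34% higher and 5.41% lower. Of 45 interferon genes 19 were higher with shRNA2 and 30 with shRNA1. Of 28 ATF4 targets 16 were higher with shRNA2, and 11 higher and 1 lower with shRNA1. Of 17 MHC class II genes 10 were lower with shRNA2 and 8 with shRNA1. Of 62 mitosis genes 28 were lower and 0 higher with shRNA2, and 11 lower and 14 higher with shRNA1. Of 66 cytosolic ribosomal proteins 5 were higher with shRNA2 and 65 with shRNA1. HLA-DRA gave -2.05 with shRNA2 and -2.72 with shRNA1, CIITA -2.04 with shRNA2 and -2.66 with shRNA1, and ZBP1 -1.48 with shRNA2 and -1.25 with shRNA1. HLA-DQB1 gave -2.50 with shRNA2 and -0.33 with shRNA1.

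Some calls named above were lost in fits that left out 1 library and so left 1 in its group. Such a fit is a weaker test, so a lost call is not by itself a changed difference. With 1 library left out, ASNS lost its call without MM1.S shRNA2 replicate 1 (1.46), H929 scramble replicate 1 (1.49) or H929 shRNA2 replicate 2 (1.51), and HLA-DRB1 without the same 3 libraries (-1.68, -1.81 and -1.67). BIRC5 lost it without H929 shRNA2 replicate 2 (-1.25), as did AARS (1.01). NR4A1 lost it without H929 shRNA2 replicate 1 (1.61), H929 scramble replicate 2 (1.63) or H929 shRNA2 replicate 2 (1.67), and PMAIP1 without H929 scramble replicate 1 (1.59) or H929 shRNA2 replicate 2 (1.66). FOS lost it without MM1.S scramble replicate 1 (-2.96), MM1.S shRNA2 replicate 1 (-2.36), H929 shRNA2 replicate 1 (-2.50) or H929 scramble replicate 2 (-2.54), and also with edgeR. PHGDH kept it in 3 of the 8 such fits (1.24 to 2.73), and FOXM1 in 0 of 8. Against the H929 scramble of shRNA1, 29 of the 161 named genes called in the difference lost their call with the same sign and 2 changed sign. In the MHC class II list these were HLA-DPA1 (-0.60), HLA-DPB1 (-1.03), HLA-DRB5 (-1.61), HLA-DOB (-0.79), HLA-DMA (-0.24) and HLA-DMB (-0.25). In the ATF4 list they were WARS (0.59), AARS (0.62), GARS (0.61), SARS (0.54), ASNS (1.02), PHGDH (0.93), SHMT2 (0.37), SLC38A2 (0.55), SLC7A11 (1.65) and CHAC1 (2.16), with EPRS among those that changed sign. BCL2L11 (-0.34), PMAIP1 (1.08), FGFR3 (-1.06), SCNN1G, SLC35F1 and LINC00861 also lost it.

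**Figure D4:**
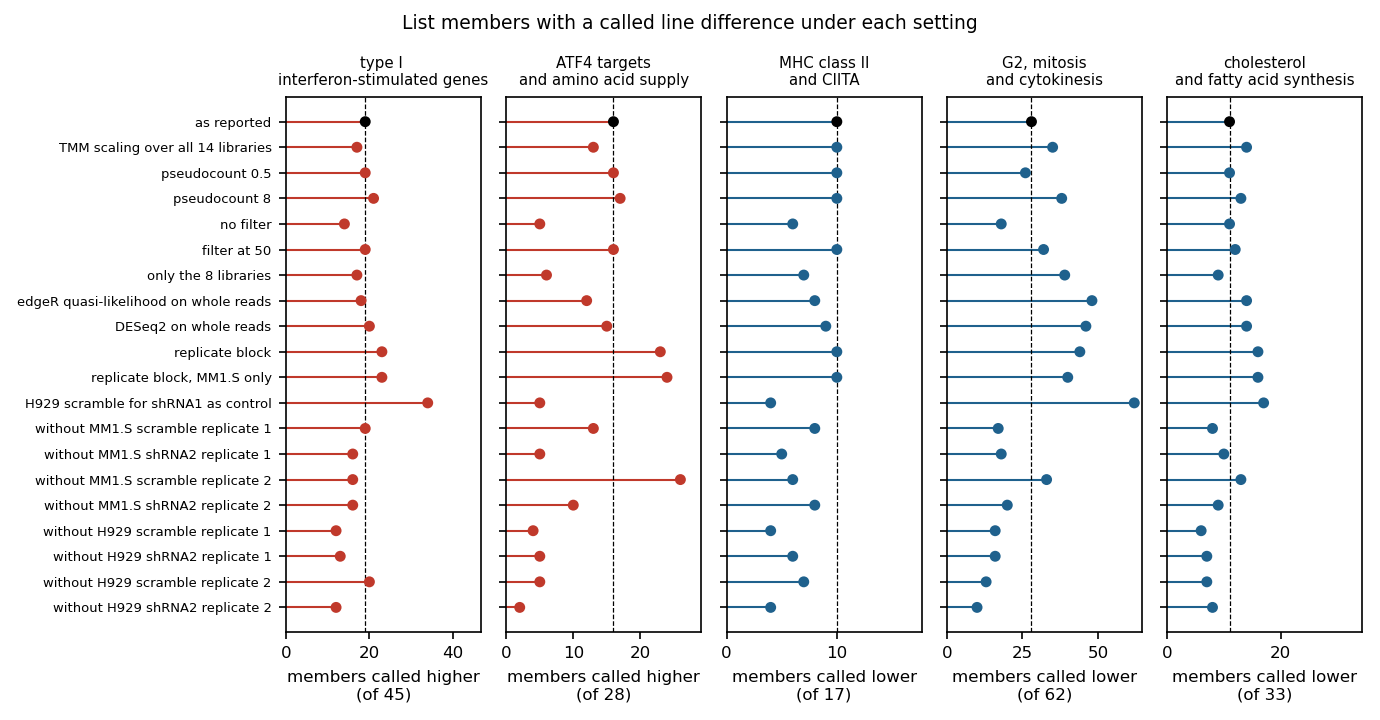
Members called in the line difference for 5 gene lists (horizontal axis, number of genes) under each of 20 settings of the analysis. The count, with the reported one in black, ranged from 12 to 34 higher for interferon genes, 2 to 26 higher for ATF4 targets, 4 to 10 lower for MHC class II, 10 to 62 lower for mitosis and 6 to 17 lower for cholesterol and fatty acid synthesis.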

How the data were processed

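Poly(A) RNA was sequenced from 14 libraries, of which the 8 of shRNA2 and its controls are compared here; all 14 entered the fit so that the spread rests on 7 residual degrees of freedom. STAR 2.5.3a, DESeq2 1.24.0 and GRCh38 are the tools and build in the submitters' processing notes; the counting tool and strand are not given in the sources used here, and 87 of 177 named genes overlap a gene on the opposite strand. The authors deposited raw read counts per gene for MM1.S. The H929 table is also named as counts, per the file headers, but it holds a normalized signal that the authors made by dividing counts by 1 size factor per library: multiplied back, 100% of values were whole within 0.01. The authors also deposited log2 fold changes and adjusted p-values per comparison. Of 58069 genes listed, 18 repeated identifiers were left out. The shRNA2 columns were matched to their samples by elimination, as their names do not give the hairpin number. The column of H929 scramble for shRNA1 replicate 2, part of the other H929 control, was also matched by elimination.

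MM1.S counts were divided by median-of-ratios size factors, and both tables were joined. Genes with at least 10 in at least 2 libraries (20370) were tested with limma 3.58.1 in R 4.3.3 on log2(value + 1), which understates changes of low genes, with a threshold of 0.05 on the Benjamini-Hochberg adjusted p. The fit was checked on simulated counts. These had the same dispersion in every group and no pairing, so the check does not cover the unequal spreads or the pairing seen here. The planned count test, edgeR 4.0.16, was run on the recovered whole reads as an alternative, as was DESeq2 1.42.0, with other scalings, pseudocounts, filters, sample sets and controls, and without each library in turn. Same-numbered MM1.S libraries deviated together (correlations 0.635 to 0.804 over 9974 genes), and H929 libraries did not (-0.198 to 0.204). The reported fit has no term for this pairing. A block by replicate number was run as an alternative and gave 1928 higher and 1922 lower genes.

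The comparison, the 28 gene lists and the rule for named genes were chosen with earlier results of these data known. The rule took ZBP1, the 10 highest and lowest differences among genes well expressed in both lines, the 6 highest and lowest opposite genes, up to 2 per list and direction, 3 per direction expressed in 1 line, and 5 per direction alike in both. Other members of the lists described first, the promoters shown and the motif TGATGNAA were chosen after values were seen. Gene positions are from the GENCODE annotation of GRCh38. Promoters are from RefSeq (GRCh38.p14, 1 per gene, 11684 matched); no motif counted contains another. A few genes are not reported here.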

Additional observations from a re-analysis of the deposited data

Results flagged for a closer look

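The lines differed in their response to shRNA2 for 885 genes higher and 1102 lower in MM1.S by limma's test of the difference itself. Among well expressed genes called in both lines with opposite signs, the highest line differences were RAB3IL1 at 4.11, TP53I11 at 2.98, CMTM3 at 2.67, EEF1A1P22 at 2.51, IRF7 at 2.45 and ABCA1 at 2.43 (log2). The lowest were ILDR2 at -2.69, FSIP2 at -2.53, HLA-DQB1 at -2.50, DDAH1 at -2.41, PRR15 at -2.38 and HLA-DRA at -2.05. Each of these 12 genes was called in all 11 other settings and without each of the 8 libraries in turn.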

How the results depend on the processing

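Of 161 named genes called in the line difference, 97 kept their call in all 11 other settings, 82 kept it without each of the 8 libraries, and 72 in both. The counts of 885 higher and 1102 lower genes were 498 and 703 without a filter, 561 and 1306 with edgeR, and 1838 and 2296 with the H929 scramble for shRNA1 as control. With the replicate block they were 1928 and 1922, and with a block in MM1.S only, an alternative chosen after seeing the data, 1941 and 1926. TP53INP1 and EPRS turned direction against the H929 scramble for shRNA1, TP53INP1 to 0.020 with a limma adjusted p = 0.962 and EPRS to -0.18 with 0.382. The causes were not tested. Without 1 library the line difference had 324 to 1093 higher and 484 to 1057 lower genes, and the H929 effect 1172 to 2638 higher and 2286 to 3825 lower. The line difference gave 499 and 692 without MM1.S shRNA2 replicate 1, 549 and 845 without replicate 2, 350 and 484 without H929 shRNA2 replicate 1, and 324 and 500 without replicate 2. It gave 423 and 636 without H929 scramble replicate 1, and 411 and 601 without replicate 2. With 2 libraries a group, the spread between libraries was 2.36 to 30.3 times that of counting in the groups compared. Whether that spread or depth limits precision more was not tested.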
